A study of Homo sapiens with 8 samples.

Results

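The 10 genes described here act in NOTCH signalling and were followed across HEK293T cells and 3 knockout derivatives. They were taken by name, with Ensembl gene identifiers matched to symbols, and all 10 were among the 60617 genes of the count table and among the 17527 genes with enough counts to be tested. The ligands were JAG1, JAG2 and DLL4, the receptors were NOTCH2 and NOTCH3, RFNG stood for receptor glycosylation, and the effectors were HES1, HES4, HES6 and HEY1. HEK293T is a human embryonic kidney line that carries adenovirus E1 sequences and the SV40 large T antigen, and every group shares that background. Poly(A) RNA was sequenced from 2 libraries of each of 4 genotypes, which the labels give as sgKDM5C, sgKDM6A, sgKMT2B and WT. KDM5C removes methyl groups from histone H3 lysine 4 and KDM6A from histone H3 lysine 27, while KMT2B adds them to histone H3 lysine 4. The labels give neither the guide sequences nor whether a knockout is 1 clone or a pool, and they do not say whether the 2 libraries of a group came from separate cultures. P-values therefore measure only the spread between these libraries, which may be technical.

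NOTCH receptors are cut on the way to the cell surface and again when a ligand on a neighbouring cell pulls on them, and the freed intracellular domain enters the nucleus. There it joins the DNA-binding protein RBPJ and coactivators of the MAML family and turns on target genes, among which the HES and HEY repressors are the best known. Sugars added by POFUT1 and by the fringe enzymes tune which ligands a receptor answers to. Outside NOTCH signalling HES1 and HEY1 also answer to other pathways, so their RNA level is not by itself a measure of NOTCH activity.

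Libraries held between 15868353 counts in WT replicate 2 and 27591724 counts in sgKDM6A replicate 2. Levels are counts scaled to library size (CPM) with TMM factors. Calls, the words rose and fell included, stand for an adjusted p under 0.05 in edgeR's quasi-likelihood test on all 8 libraries. In the group labelled as its knockout, each targeted gene was lower than in WT. KDM5C RNA averaged 321 CPM in sgKDM5C, against 456 CPM in WT (log2 change of -0.50, SE 0.0822, edgeR adjusted p = 0.00109). It averaged 383 CPM in sgKDM6A (-0.25, edgeR adjusted p = 0.0359) and 393 CPM in sgKMT2B (-0.21, edgeR adjusted p = 0.0667). KDM6A RNA averaged 10.9 CPM in sgKDM6A, against 57.7 CPM in WT (-2.39, SE 0.133, edgeR adjusted p = 9.38e-08). KMT2B RNA averaged 69.3 CPM in sgKMT2B, against 141 CPM in WT (-1.03, SE 0.11, edgeR adjusted p = 2.44e-05). Of 6 genes listed for HEK293 lines, 5 reached 1 CPM in every group and LHX1 was near 0. Only LRP2 of 7 mature kidney genes reached 1 CPM. The 7 summed to 57.8 to 65.1 CPM in sgKDM5C, 32.2 to 39.5 CPM in sgKDM6A, 2.45 to 2.60 CPM in sgKMT2B and 41.5 to 44.8 CPM in WT. Across all libraries the summed level of 6 endothelial genes lay between 0.510 and 1.89 CPM and that of 5 blood genes between 3.13 and 7.30 CPM, with CD3E and HBB at 0 counts. KRT8, an epithelial keratin, was at 50.8 to 51.6 CPM in sgKDM5C, 5.15 to 5.61 CPM in sgKDM6A, 247 to 265 CPM in sgKMT2B and 59.9 to 61.3 CPM in WT. KRT18, another keratin listed for HEK293 lines, went the other way from KRT8 in sgKMT2B. It was at most 64.8 CPM there, against at least 94.3 CPM in WT, and was also below WT in sgKDM5C and sgKDM6A. The 6 fibroblast genes summed to 31.1 to 33.7 CPM in sgKDM5C, 22.5 to 24.5 CPM in sgKDM6A, 80.9 to 94.0 CPM in sgKMT2B and 54.2 to 55.8 CPM in WT. They did not move together in sgKMT2B. COL3A1 was at 40.3 to 46.1 CPM there, against 1.32 to 1.69 CPM in WT. LUM (1.25 to 2.09 CPM), DCN (0.434 to 0.603 CPM) and PDGFRB (0.763 to 1.38 CPM) were also above WT there, at low levels. In WT they were at 0.207 to 0.260, 0.0826 to 0.130 and 0.537 to 0.650 CPM. COL1A1 was lower in sgKMT2B, at 37.9 to 44.0 CPM, against 52.0 to 52.8 CPM in WT. COL1A2 had 0 counts in sgKMT2B and only 4 in WT. The part of these shifts in the NOTCH gene results was not tested. In such bulk libraries fewer cells that express a gene and less of its RNA per cell cannot be told apart.

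The promoters of HES1, JAG1 and DLL4 are shown because these genes had the widest spans of log2 change across the 3 knockouts. Each run holds the bases just before the gene's start, 5′ to 3′ on the strand of the gene, from RefSeq on GRCh38.p14, and 9 of the 10 genes had an entry there. Capitals mark TGGGAA, the core of the site that RBPJ binds.
HES1, chr3:194135898-194136144, plus strand: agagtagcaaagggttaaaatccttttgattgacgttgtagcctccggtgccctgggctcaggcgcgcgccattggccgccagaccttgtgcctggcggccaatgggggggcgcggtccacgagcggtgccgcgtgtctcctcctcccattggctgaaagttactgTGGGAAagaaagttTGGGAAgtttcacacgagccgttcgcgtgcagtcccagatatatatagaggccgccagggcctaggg
JAG1, chr20:10674000-10674249, minus strand: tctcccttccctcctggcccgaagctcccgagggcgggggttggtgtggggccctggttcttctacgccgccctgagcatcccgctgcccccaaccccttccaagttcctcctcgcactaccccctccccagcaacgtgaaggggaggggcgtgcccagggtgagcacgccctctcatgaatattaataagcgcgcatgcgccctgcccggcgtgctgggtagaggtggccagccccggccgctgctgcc
DLL4, chr15:40929090-40929332, plus strand: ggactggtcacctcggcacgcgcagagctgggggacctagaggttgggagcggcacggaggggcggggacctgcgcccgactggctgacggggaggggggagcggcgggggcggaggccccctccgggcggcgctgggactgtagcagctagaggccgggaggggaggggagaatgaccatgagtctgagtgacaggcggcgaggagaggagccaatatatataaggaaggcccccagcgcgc
HES1 held TGGGAA in 2 places, at 84 to 79 and at 70 to 65 bases before the RefSeq start, while JAG1 and DLL4 held none on either strand. Searched on both strands of the 250 bases before each start, TGGGAA was in 20.8% of 35114 RefSeq promoters. HES4 held it once, at 76 to 71 bases before its RefSeq start, and the other matched NOTCH genes did not hold it. Only 175 of these 250 bases in HES4 lay before both its RefSeq and its GENCODE start, and the match was not wholly among them. For HES6 0 bases lay before both starts. HEY1 was the gene without an entry. CACNAG, the N box that HES repressors bind, occurred 3 times in HES1 and in 32% of all promoters, and CACGCG, the class C site, 2 times in HES1 and in 9.72% of all promoters. None of these matches in HES1 overlapped another. CACGCG also occurred once each in JAG2 and DLL4, and CACNAG once in NOTCH3. The E box CACGTG, found in 6.35% of all promoters, was in none of the 9. CpG observed over expected ratios of the 9 lay between 0.592 in JAG1 and 1.03 in HES4, against a median of 0.558 over all promoters. Their GC content lay between 59.2% in HES1 and 81.6% in JAG2, against a median of 58.0%.

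Across the 10 genes, lower RNA in the knockouts was the more frequent call. In sgKDM6A none rose, 8 fell and 2 did not pass the test, and in sgKMT2B 1 rose, 7 fell and 2 did not pass. In sgKDM5C 1 rose, 3 fell and 6 did not pass. That none rose in sgKDM6A held in edgeR also at an unadjusted p under 0.05 (0 of 10), and DESeq2 called 8 lower and 0 higher there. Set beside these counts, 27.2% of all tested genes were called in sgKDM6A (12.6% higher, 14.6% lower), 28.1% in sgKMT2B (13.7% higher, 14.5% lower) and 22.6% in sgKDM5C (11.1% higher, 11.5% lower). The genes were picked with earlier results of these data known, so the excess over those shares is a description. Their median log2 change was -0.19 in sgKDM5C, -0.50 in sgKDM6A and -0.59 in sgKMT2B, against medians over all tested genes of 0.02, 0.01 and 0.00. Each comparison used the same 2 WT libraries. Without WT replicate 1 or sgKDM5C replicate 2 the calls in sgKDM5C were 1, without sgKDM5C replicate 1 they were 2, and without either sgKDM6A replicate those in sgKDM6A were 5.

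**Figure D1:**
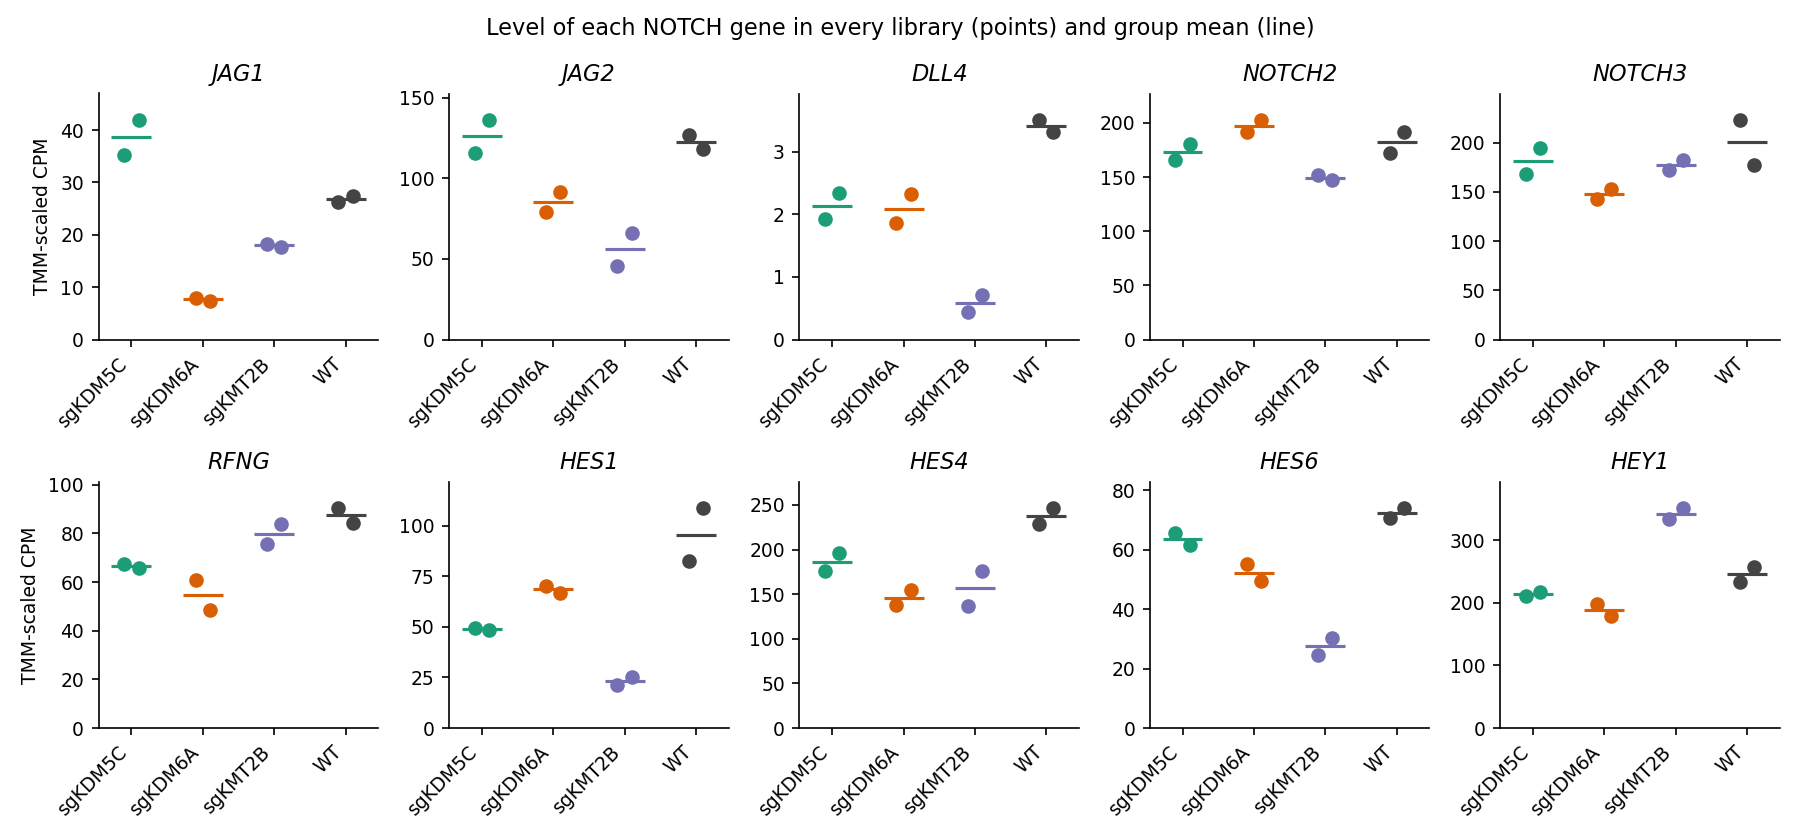
TMM-scaled CPM of the 10 NOTCH genes in each library, on linear axes from 0, for sgKDM5C, sgKDM6A, sgKMT2B and WT from left to right, with points for libraries and lines for group means. JAG1 is lowest in sgKDM6A at 8.01 and 7.29 CPM, DLL4 and HES1 are lowest in sgKMT2B, and HEY1 is highest in sgKMT2B at 334 and 351 CPM.

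HES1 and HES4 were the 2 of the 10 that fell in all 3 knockouts, a pattern that 580 of 17527 tested genes (3.31%) shared. JAG1, JAG2, RFNG and HES6 fell in 2 knockouts each, and DLL4, NOTCH2, NOTCH3 and HEY1 in 1. JAG1 rose in sgKDM5C and HEY1 in sgKMT2B, the 2 calls upwards among the 20 made against WT. Of those 20 calls, 10 held under every alternative that was run, including each library left out in turn.

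JAG1 (ENSG00000101384, chr20:10637684-10673999, minus strand of GRCh38), a ligand of the Jagged family, differed between every pair of groups. It was at 35.3 and 42.0 CPM in the sgKDM5C libraries, 8.01 and 7.29 CPM in sgKDM6A, 18.2 and 17.7 CPM in sgKMT2B, and 26.2 and 27.5 CPM in WT. No 2 groups overlapped, and the order ran from sgKDM5C through WT and sgKMT2B down to sgKDM6A. In sgKDM6A it fell 3.51-fold, with means of 7.65 ± 0.508 CPM in sgKDM6A and 26.9 ± 0.893 CPM in WT (SD, 2 libraries each; log2 change -1.81, SE 0.147, edgeR adjusted p = 3.75e-06). A smaller fall was called in sgKMT2B, at 18.0 ± 0.327 CPM (SD, 2 libraries; log2 change -0.58, SE 0.139, edgeR adjusted p = 0.00745), and a rise in sgKDM5C, at 38.6 ± 4.69 CPM (SD, 2 libraries; log2 change 0.53, SE 0.136, edgeR adjusted p = 0.0143). Only the fall in sgKDM6A was called whichever library was left out. Without WT replicate 1 or sgKDM5C replicate 2 the edgeR adjusted p of the rise was 0.0539 and 0.140, and without sgKMT2B replicate 1 or 2 that of the fall there was 0.0542 and 0.0546. JAG1 shares 79 exon bases with an antisense gene that had 0 counts in all libraries.

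JAG2 (ENSG00000184916, chr14:105140981-105168824, minus strand), the other Jagged ligand, was lowest in sgKMT2B. Its libraries had 116 and 136 CPM in sgKDM5C, 78.9 and 91.8 CPM in sgKDM6A, 45.9 and 66.1 CPM in sgKMT2B, and 127 and 118 CPM in WT. The sgKDM5C and WT libraries overlapped, and the other 2 knockouts lay below both. The fall in sgKMT2B was 2.19-fold, to 56.0 ± 14.3 CPM on average, against 123 ± 6.33 CPM in WT (SD, 2 libraries each; log2 change -1.13, SE 0.152, edgeR adjusted p = 0.000149), and it was called in every alternative. JAG2 also fell in sgKDM6A, at 85.4 ± 9.12 CPM (SD, 2 libraries; log2 change -0.52, SE 0.149, edgeR adjusted p = 0.0202). Leaving out WT replicate 1 (adjusted p = 0.0752) or sgKDM6A replicate 1 (adjusted p = 0.155) ended that call. In sgKDM5C the log2 change of 0.04 (SE 0.148, edgeR adjusted p = 0.878) turned to -0.026 without WT replicate 2 and to -0.094 without sgKDM5C replicate 2.

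DLL4 (ENSG00000128917, chr15:40929333-40939073, plus strand), a Delta-type ligand best known from blood vessel sprouting, was the scarcest of the 10. It had 1.93 and 2.35 CPM in sgKDM5C, 1.86 and 2.32 CPM in sgKDM6A, 0.442 and 0.709 CPM in sgKMT2B, and 3.51 and 3.31 CPM in WT. These levels rest on 115 counts over the sgKDM5C libraries, 112 in sgKDM6A, 29 in sgKMT2B (Poisson 95% interval 19.4 to 41.6, counting error only) and 136 in WT (114 to 161). Every knockout library was below both WT libraries, and both sgKMT2B libraries were below all others. DLL4 fell 5.89-fold in sgKMT2B (log2 change -2.56, SE 0.363, edgeR adjusted p = 0.000217), under every alternative. Neither the log2 change of -0.68 in sgKDM5C (SE 0.315, adjusted p = 0.139) nor that of -0.70 in sgKDM6A (SE 0.315, adjusted p = 0.113) passed the same test. Endothelial defining genes PECAM1, CDH5 and TEK summed with 3 others to at most 1.89 CPM in any library. Those 3 were VWF, KDR and EMCN. VWF was at 1.21 to 1.26 CPM in sgKMT2B and at most 0.0826 CPM in WT. KDR was at 0.241 to 0.394 CPM in sgKMT2B and 0.991 to 1.17 CPM in WT. EMCN was at most 0.121 CPM in sgKMT2B and 0.0650 CPM in WT.

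NOTCH2 and NOTCH3 had log2 changes between -0.44 and 0.12 in the 3 knockouts. NOTCH1, a receptor outside the 10, had log2 changes of -0.58 in sgKDM5C (edgeR adjusted p = 0.00640), -0.44 in sgKDM6A (adjusted p = 0.0215) and 0.31 in sgKMT2B (adjusted p = 0.0796). Its call in sgKDM5C ended without sgKDM5C replicate 1 (adjusted p = 0.0637), and that in sgKDM6A without WT replicate 2 (0.150) or sgKDM6A replicate 1 (0.180). NOTCH2 (ENSG00000134250, chr1:119911553-120069626, minus strand) had 166 and 181 CPM in sgKDM5C, 192 and 203 CPM in sgKDM6A, 152 and 147 CPM in sgKMT2B, and 172 and 192 CPM in WT. It was highest in sgKDM6A, where the log2 change of 0.12 (SE 0.0927, edgeR adjusted p = 0.375) did not pass, and lowest in sgKMT2B. In sgKMT2B it was called lower, at 150 ± 3.51 CPM, against 182 ± 13.7 CPM in WT (SD, 2 libraries each; log2 change -0.28, SE 0.0930, edgeR adjusted p = 0.0366). That call was lost with no filter on low counts (0.0604), with only the 4 libraries compared (0.0676), and without WT replicate 2 (0.155), sgKDM6A replicate 1 (0.0567) or 2 (0.0568), or sgKMT2B replicate 1 (0.138) or 2 (0.187), each value an adjusted p. NOTCH2 has near-identical partial copies on the same chromosome, of which NOTCH2NLC averaged 0.573 to 1.14 CPM across the groups and NOTCH2NLA at most 0.280 CPM, so reads shared between copies make its level uncertain.

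NOTCH3 (ENSG00000074181, chr19:15159038-15200981, minus strand) had 168 and 195 CPM in sgKDM5C, 143 and 153 CPM in sgKDM6A, 173 and 182 CPM in sgKMT2B, and 223 and 178 CPM in WT. The WT libraries lay far apart, and those of sgKDM5C and sgKMT2B reached into their range, while both sgKDM6A libraries were below every other library. The fall in sgKDM6A, to 148 ± 6.80 CPM, against 200.4 ± 32.2 CPM in WT, was called (SD, 2 libraries each; log2 change -0.44, SE 0.115, edgeR adjusted p = 0.0124). The call ended without WT replicate 1 (log2 change -0.26, adjusted p = 0.0922) or sgKDM6A replicate 1 (-0.39, adjusted p = 0.0978). Neither sgKDM5C (log2 change -0.14, adjusted p = 0.395) nor sgKMT2B (-0.18, adjusted p = 0.272) passed. Without WT replicate 1 these log2 changes turned to 0.032 and 0.0014, and without WT replicate 2 the change in sgKMT2B was -0.33 and passed (adjusted p = 0.0429).

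RFNG (ENSG00000169733, chr17:82047902-82051831, minus strand) encodes radical fringe, which lengthens the O-fucose sugar on NOTCH receptors. It had 67.3 and 65.8 CPM in sgKDM5C, 60.9 and 48.6 CPM in sgKDM6A, 75.7 and 83.7 CPM in sgKMT2B, and 90.3 and 84.4 CPM in WT. All 6 knockout libraries were below both WT libraries. The fall in sgKDM6A, to 54.7 ± 8.69 CPM, against 87.4 ± 4.15 CPM in WT, was called in every alternative (SD, 2 libraries each; log2 change -0.68, SE 0.119, edgeR adjusted p = 0.00118). In sgKDM5C RFNG fell with a log2 change of -0.39 (SE 0.118, adjusted p = 0.0292). It was no longer called after thinning all libraries to one depth (0.0536) and without WT replicate 1 (0.0971) or either sgKDM5C replicate (both 0.111). In sgKMT2B the log2 change was -0.13 (adjusted p = 0.434). RFNG shares 835 exon bases with GPS1 on the opposite strand, and GPS1 had 63391 counts over the 8 libraries, against 13975 for RFNG. GPS1 itself did not pass in any knockout (log2 changes of -0.10, -0.16 and -0.04), and how many reads of one were counted to the other is not known without the strand setting.

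HES1 (ENSG00000114315, chr3:194136145-194138732, plus strand), the classical NOTCH target and a repressor of transcription, had the largest fall of the 4 effectors. It was at 49.5 and 48.4 CPM in sgKDM5C, 70.4 and 66.6 CPM in sgKDM6A, 21.2 and 25.4 CPM in sgKMT2B, and 82.5 and 109 CPM in WT. No 2 groups overlapped, and every knockout library was below WT. HES1 fell 4.09-fold in sgKMT2B, with means of 23.3 ± 2.95 CPM in sgKMT2B against 95.5 ± 18.5 CPM in WT (SD, 2 libraries each; log2 change -2.03, SE 0.141, edgeR adjusted p = 6.25e-07). It fell 1.95-fold in sgKDM5C, at 48.9 ± 0.780 CPM (SD, 2 libraries; log2 change -0.96, SE 0.135, edgeR adjusted p = 0.000435), and both calls held in every alternative. The smaller fall in sgKDM6A, at 68.5 ± 2.64 CPM (SD, 2 libraries; log2 change -0.48, SE 0.134, edgeR adjusted p = 0.0181), depended on single libraries. It was -0.27 without WT replicate 2 (adjusted p = 0.173), and its adjusted p was 0.0654 without sgKDM6A replicate 1 and 0.100 without replicate 2.

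HES4 (ENSG00000188290, chr1:998962-1000172, minus strand), a HES repressor close to HES1 that mice lack, had 176 and 196 CPM in sgKDM5C, 137 and 154 CPM in sgKDM6A, 137 and 176 CPM in sgKMT2B, and 228 and 246 CPM in WT. All knockout libraries were below WT, and those of sgKMT2B reached into the ranges of both other knockouts. It averaged 146 ± 12.04 CPM in sgKDM6A (log2 change -0.70, SE 0.119, edgeR adjusted p = 0.000934) and 156 ± 27.6 CPM in sgKMT2B (log2 change -0.60, SE 0.119, edgeR adjusted p = 0.00233), against 237 ± 12.8 CPM in WT (SD, 2 libraries each). Both falls held in every alternative. In sgKDM5C, at 186 ± 14.1 CPM (SD, 2 libraries), the log2 change of -0.35 (SE 0.118, edgeR adjusted p = 0.0478) was just past the threshold. It was lost with upper-quartile factors (0.0725), a minimum mean of 1 CPM (0.0508) or thinning (0.0516), and without WT replicate 1 (0.0519) or 2 (0.150), sgKDM5C replicate 1 (0.258) or 2 (0.0595), or sgKDM6A replicate 1 (0.0519) or 2 (0.0523), all adjusted p.

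HES6 (ENSG00000144485, chr2:238238267-238240662, minus strand) differs from the others in role, since it opposes HES1 in nerve cell precursors of the mouse. Its libraries had 65.6 and 61.5 CPM in sgKDM5C, 55.0 and 49.5 CPM in sgKDM6A, 24.7 and 30.2 CPM in sgKMT2B, and 70.4 and 73.8 CPM in WT. The 4 groups did not overlap. HES6 fell 2.62-fold in sgKMT2B, to 27.5 ± 3.91 CPM, against 72.1 ± 2.41 CPM in WT (SD, 2 libraries each; log2 change -1.39, SE 0.123, edgeR adjusted p = 5.37e-06), under every alternative. It fell to 52.2 ± 3.94 CPM in sgKDM6A (SD, 2 libraries; log2 change -0.47, SE 0.120, edgeR adjusted p = 0.0115), a call lost without sgKDM6A replicate 2 (adjusted p = 0.102). In sgKDM5C the log2 change of -0.18 did not pass (adjusted p = 0.295).

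HEY1 (ENSG00000164683, chr8:79764010-79767863, minus strand), a repressor that NOTCH turns on in the heart and vessels, went the other way from HES1 in sgKMT2B. It had 211 and 217 CPM in sgKDM5C, 197 and 179 CPM in sgKDM6A, 334 and 351 CPM in sgKMT2B, and 233 and 257 CPM in WT. Both sgKMT2B libraries were above WT, and the other knockout libraries were below it. HEY1 rose to 342 ± 12.2 CPM in sgKMT2B, against 245 ± 16.9 CPM in WT (SD, 2 libraries each; log2 change 0.48, SE 0.0903, edgeR adjusted p = 0.00160), under every alternative. In sgKDM6A it fell to 188 ± 13.0 CPM (SD, 2 libraries; log2 change -0.38, SE 0.0905, edgeR adjusted p = 0.00742), a call lost without sgKDM6A replicate 2 (adjusted p = 0.0876). The log2 change in sgKDM5C was -0.19 (adjusted p = 0.139).

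**Figure D2:**
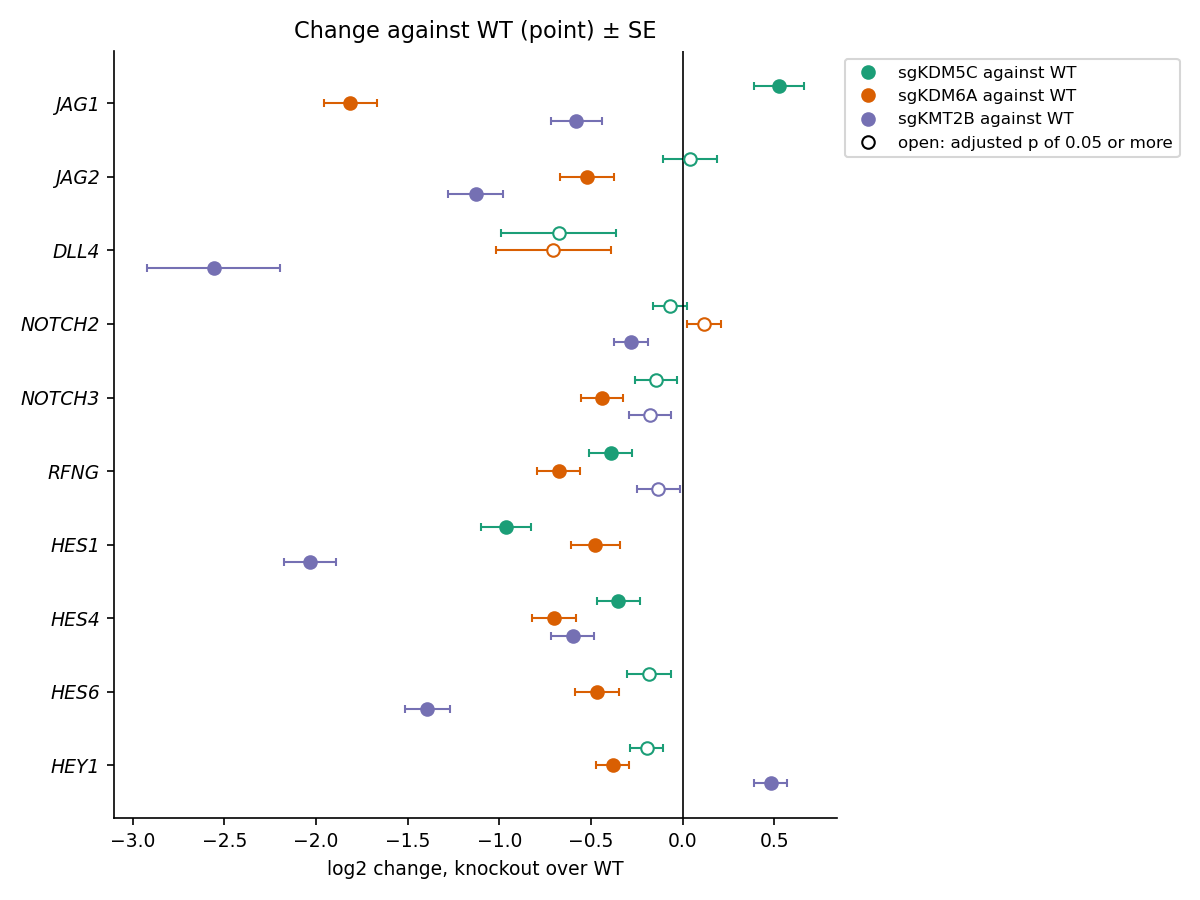
Log2 change of each NOTCH gene in the 3 knockouts against WT, with bars of 1 SE from the fit on all 8 libraries and filled points for an adjusted p under 0.05. HES1 and HES4 lie left of 0 in all 3 knockouts, JAG1 lies at 0.53 in sgKDM5C and -1.81 in sgKDM6A, and HEY1 lies at 0.48 in sgKMT2B.

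The knockouts also differed from one another. Between sgKDM5C and sgKDM6A, 3 of the 10 genes were called, 2 higher in sgKDM5C and 1 lower, against 19.8% of all tested genes (10.9% higher, 8.86% lower). The count was 5 without either WT replicate and 1 without sgKDM5C replicate 2 or sgKDM6A replicate 1. JAG1 was 5.05-fold higher in sgKDM5C (log2 change 2.34, SE 0.146, edgeR adjusted p = 2.30e-07) in every alternative. JAG2 was higher (0.56, SE 0.149, adjusted p = 0.0174), except without sgKDM5C replicate 2 (0.140) or sgKDM6A replicate 1 (0.143). HES1 was lower (-0.49, SE 0.134, adjusted p = 0.0213), and leaving out any of the 4 libraries moved its adjusted p to between 0.0595 and 0.115. HES4, at a log2 change of 0.35 and an adjusted p of 0.0533, did not pass but did so under 10 of 16 alternatives. NOTCH3, at 0.30 and 0.0869, passed with no filter (0.0457) and without WT replicate 1 (0.0300) or 2 (0.0349). DLL4 did not differ detectably (0.03, SE 0.317) and its sign turned under 3 alternatives.

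Between sgKDM5C and sgKMT2B, 6 genes were called, 5 higher and 1 lower, against 22.1% of all tested genes (11.6% higher, 10.5% lower), and all 6 calls held in every alternative. DLL4 was 3.68-fold higher in sgKDM5C (log2 change 1.88, SE 0.365, edgeR adjusted p = 0.00225). HES6 (1.21), JAG2 (1.17), JAG1 (1.10) and HES1 (1.07) were higher by similar log2 changes, with SEs of 0.122, 0.151, 0.137 and 0.139. HEY1 was lower (-0.68, SE 0.0903, adjusted p = 0.000137). The remaining 4 did not pass. HES4, however, passed with the replicate number as a block (log2 change 0.26, edgeR adjusted p = 0.0439) and without sgKMT2B replicate 2 (log2 change 0.44). NOTCH3 changed sign without sgKDM5C replicate 2 or sgKMT2B replicate 1.

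Between sgKDM6A and sgKMT2B, 8 genes were called, 5 higher and 3 lower, against 24.9% of all tested genes (12.4% higher, 12.5% lower). JAG1 and HES1 ran in opposite directions. JAG1 was lower in sgKDM6A (log2 change -1.23, SE 0.146, edgeR adjusted p = 4.00e-05) and HES1 was 2.94-fold higher (1.56, SE 0.140, adjusted p = 3.59e-06). DLL4 (1.85), HES6 (0.93), JAG2 (0.61) and NOTCH2 (0.40) were higher, and HEY1 (-0.86) and RFNG (-0.54) were lower. JAG2 was lost without sgKDM6A replicate 2 (adjusted p = 0.0788) or sgKMT2B replicate 1 (0.128), NOTCH2 without sgKDM6A replicate 2 (0.0607) or sgKMT2B replicate 2 (0.0679), and RFNG without the same 2 libraries (0.0731 and 0.0577). NOTCH3 (-0.26, adjusted p = 0.114) passed with only the 4 libraries compared (0.0208) and without WT replicate 1 (0.0416) or 2 (0.0422). Without sgKDM6A replicate 2 the count of calls was 5.

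**Figure D3:**
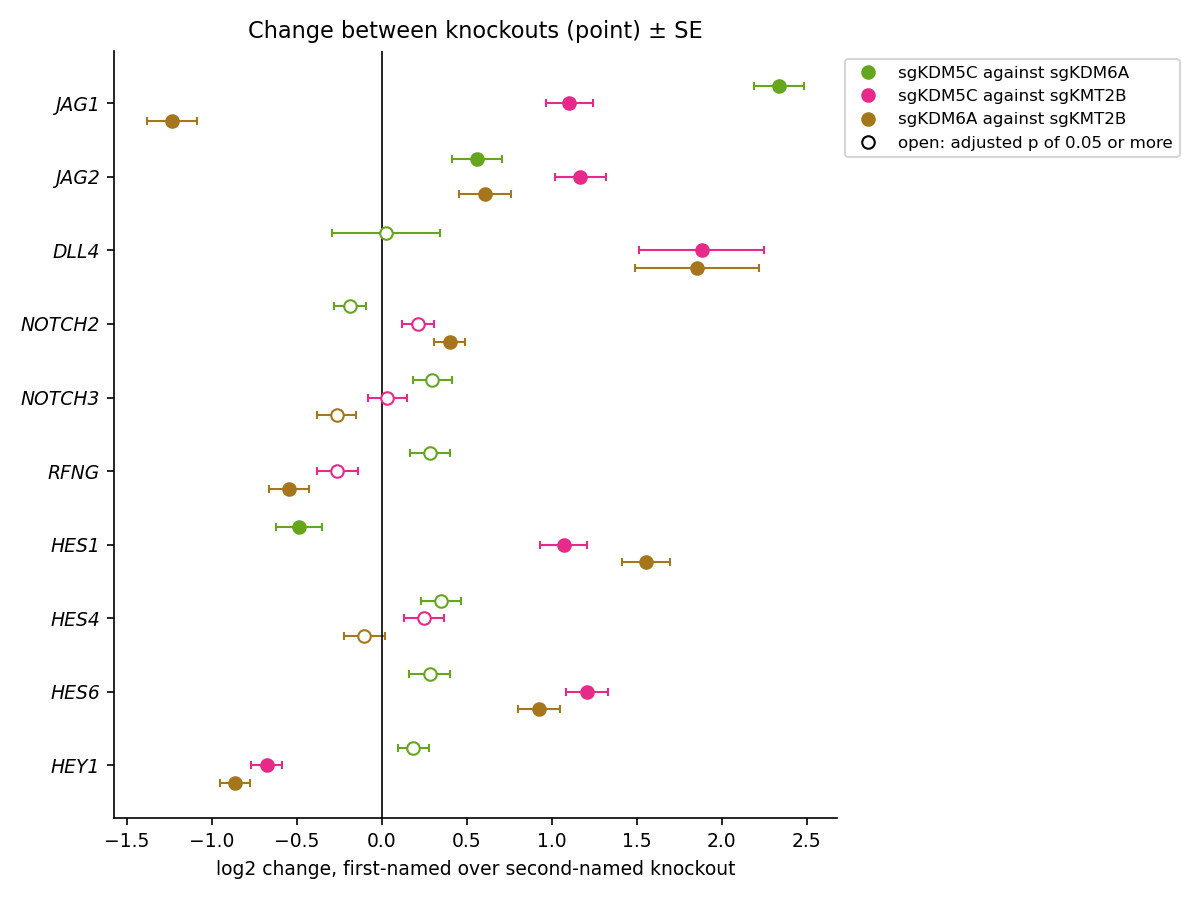
Log2 change of each NOTCH gene between knockouts, first named over second named, with bars of 1 SE and filled points for an adjusted p under 0.05. JAG1 spans from 2.34 for sgKDM5C over sgKDM6A to -1.23 for sgKDM6A over sgKMT2B, while NOTCH3 and HES4 have only open points.

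Levels of different genes were compared as mean CPM per kilobase of merged exons. In WT the order was HES4 (212), HEY1 (75.9), HES1 (46.3), HES6 (35.4), RFNG (22.6), NOTCH3 (21.3), JAG2 (19.2), NOTCH2 (10.8), JAG1 (2.89) and DLL4 (0.717), where RFNG and NOTCH3, and NOTCH3 and JAG2, overlapped between libraries. HES4 and HEY1 led and JAG1 and DLL4 came last in every group. In sgKMT2B HES1 stood sixth at 11.3 CPM per kilobase, behind RFNG (20.6), NOTCH3 (18.9) and HES6 (13.5), the last of which overlapped it. The ratio of HEY1 to HES1 per kilobase was 2.73 and 2.86 in the sgKDM5C libraries, 1.79 and 1.71 in sgKDM6A, 10.03 and 8.82 in sgKMT2B, and 1.81 and 1.51 in WT. The sgKDM6A ratios thus lay within the WT range of libraries, and the sgKMT2B ratios were several times higher. JAG1 to JAG2 was 0.210 and 0.212 in sgKDM5C, 0.0698 and 0.0546 in sgKDM6A, 0.273 and 0.185 in sgKMT2B, and 0.142 and 0.160 in WT.

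Among the 11249 tested genes that averaged 5 CPM or more, the pattern of 3 log2 changes against WT closest to that of JAG1 belonged to ADCY5 (root mean square difference 0.111) and LINC01605 (0.123). DLL4 was closest to FAM221A (0.197) and IL15RA (0.253), and HES1 to GAD1 (0.149) and MTSS1 (0.170). GAD1, for instance, had log2 changes of -0.80 in sgKDM5C, -0.59 in sgKDM6A and -1.87 in sgKMT2B, next to -0.96, -0.48 and -2.03 for HES1.

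The wider pathway was described with 71 genes sorted by role, of which 65 were tested. Without the 10 genes above, 55 were tested, and 8 rose and 12 fell in sgKDM5C, 6 rose and 14 fell in sgKDM6A, and 14 rose and 10 fell in sgKMT2B. That is 36.4%, 36.4% and 43.6% of them called, above the shares over all tested genes. The list, too, was written with earlier results of these data known, so that excess is a description. Median log2 changes of the 55 were -0.04, -0.04 and 0.09, nearer 0 than those of the 10. Leaving out 1 library brought the calls among all 65 from 24 to 11 in sgKDM5C (without sgKDM5C replicate 1), from 28 to 17 in sgKDM6A (without sgKDM6A replicate 1), and from 32 to 15 in sgKMT2B (without sgKMT2B replicate 1). The fixed rule named 54 calls outside the 10, of which 26 held in every alternative. The calls given next are from those 26, except where they are said to be lost.

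**Figure D4:**
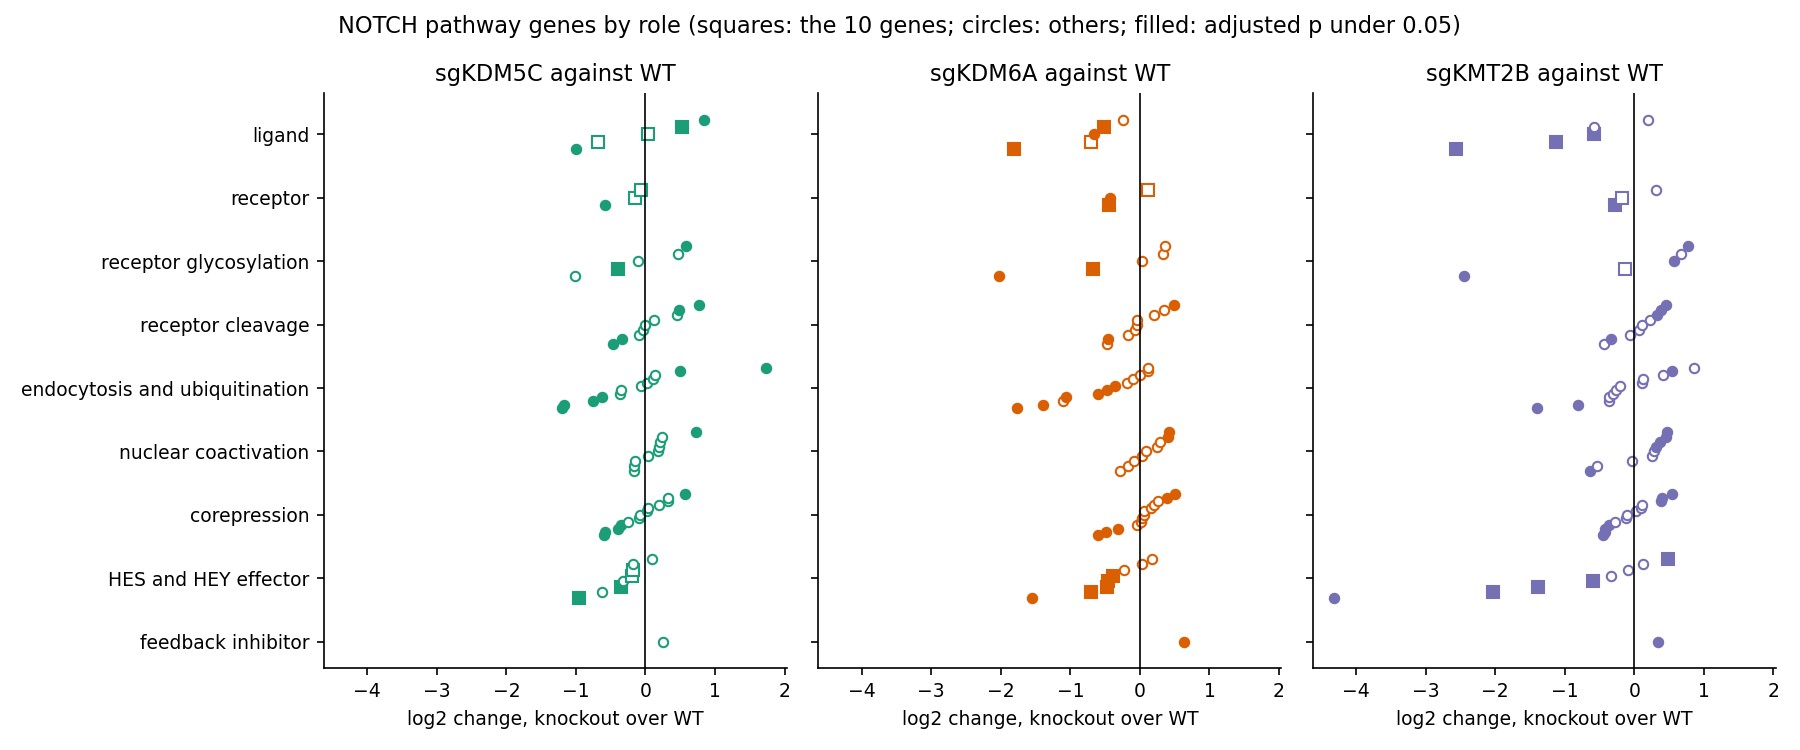
Log2 change against WT of the tested genes of the NOTCH pathway list in sgKDM5C, sgKDM6A and sgKMT2B, grouped by role, with squares for the 10 genes, circles for the others and filled points for an adjusted p under 0.05. HES7 in sgKMT2B lies farthest from 0 at -4.32, and the groups of cleavage and nuclear genes lie within 1 log2 unit of 0.

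Receptor processing and ligand handling showed calls in both directions. FURIN, which makes the first receptor cut, fell in sgKDM6A (log2 change -0.46), where its 32 neighbours within 5 Mb had a median of -0.29. Its falls in sgKDM5C (-0.34) and sgKMT2B (-0.34) were lost in 4 of 17 and 3 of 16 alternatives. Among the ubiquitin ligases, NEURL1B, which acts on ligand uptake, fell in sgKDM5C (-1.20) and sgKDM6A (-1.40). It was at 11.9 and 15.4 CPM in sgKDM5C, 10.8 and 13.0 CPM in sgKDM6A and 30.0 and 32.9 CPM in WT. The fall of NEURL1B in sgKMT2B (-0.80) was lost in 1 of 16 alternatives. DTX1, a Deltex ligase that acts on the receptor, fell in sgKDM6A (-1.77, SE 0.316) and sgKMT2B (-1.40, SE 0.309). Its fall in sgKDM5C (-1.18, SE 0.303) was lost in 3 of 17 alternatives. DTX1 levels were low, averaging 1.67 CPM in sgKDM5C, 1.11 CPM in sgKDM6A, 1.43 CPM in sgKMT2B and 3.81 CPM in WT. ITCH, another receptor ligase, rose in sgKMT2B (0.55), where its 78 neighbours within 5 Mb had a median log2 change of 0.34. MFNG, the manic fringe enzyme, fell in sgKDM6A (-2.03, SE 0.420, edgeR adjusted p = 0.00328) and sgKMT2B (-2.46, SE 0.440, edgeR adjusted p = 0.00112). Its levels were low, at 0.595 and 0.536 CPM in sgKDM6A, 0.482 and 0.355 CPM in sgKMT2B, and 2.64 and 1.95 CPM in WT. POFUT1, which places the first fucose, rose in sgKMT2B (0.57), where its 63 neighbours had a median of 0.33 and 51 of them lay below it. The part of these regional shifts was not tested.

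In the nucleus, 1 of the 9 coactivation genes rose in sgKDM5C, 2 rose in sgKDM6A, and 4 rose and 1 fell in sgKMT2B, and all others did not pass. Those shares are 11.1%, 22.2% and 55.6%, against 22.6%, 27.2% and 28.1% of all tested genes. The one that fell was SNW1 (log2 change -0.64, edgeR adjusted p = 0.000303), a RBPJ-binding splicing factor, and KAT2B, an acetyltransferase, rose in sgKDM5C (0.72, adjusted p = 0.00258). Other rises were less stable. In sgKMT2B the call of RBPJ was lost in 8 of 16 alternatives, that of KAT2B in 3 and that of CREBBP in 2. In sgKDM6A that of RBPJ was lost in 4 of 16 and that of KAT2A in 2. Among 13 corepression genes, 5 were called in sgKDM5C (38.5%), 5 in sgKDM6A (38.5%) and 7 in sgKMT2B (53.8%). HDAC1, a histone deacetylase, rose in all 3 knockouts, by 0.57, 0.51 and 0.40, with means of 597, 571 and 532 CPM, against 402 CPM in WT.

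Among the other targets, HES7, the oscillating repressor of somite formation in the mouse, had 0.161 and 0.473 CPM in sgKMT2B, from 4 and 12 counts, against 6.69 and 6.17 CPM in WT. It was 20.0-fold lower in sgKMT2B (log2 change -4.32, SE 0.402, edgeR adjusted p = 7.99e-06), while in sgKDM5C (0.10) and sgKDM6A (0.17) it did not pass. The sgKMT2B level rests on 16 counts (Poisson 95% interval 9.15 to 26.0), and the log2 change was -5.28 without sgKMT2B replicate 2 and -3.75 without sgKMT2B replicate 1. HES2 fell in sgKDM6A (log2 change -1.56, SE 0.297, edgeR adjusted p = 0.00201). NRARP, a NOTCH target that damps the signal, rose in sgKDM6A, where it was at 73.1 and 72.2 CPM, against 45.1 and 48.2 CPM in WT (log2 change 0.64, SE 0.102, edgeR adjusted p = 0.000593). Its 77 neighbours within 5 Mb had a median log2 change of 0.35 there, and 60 of them lay below NRARP. The part of that regional shift was not tested. In sgKMT2B the rise of NRARP (0.34) was lost in 4 of 16 alternatives.

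The chromosome surroundings of each gene were set beside it, since genes in some regions shift together and DNA copy number was not measured. Near NOTCH2, within 5 Mb, 21 tested genes averaged 5 CPM or more and had median log2 changes of -0.19 in sgKDM5C, -0.33 in sgKDM6A and -0.50 in sgKMT2B. NOTCH2 itself, at -0.28 in sgKMT2B, was above 17 of these 21 neighbours there. The 14 neighbours of HEY1 had a median of 0.30 in sgKMT2B, where HEY1 was at 0.48 and above 12 of them. The 16 neighbours of JAG1 had a median of 0.32 in sgKDM5C, where JAG1 was at 0.53 and above 10 of them, and of 0.28 in sgKDM6A, where JAG1 was at -1.81 and below all 16. Around HES1, DLL4 and JAG2 in sgKMT2B the medians were -0.08 (35 genes), -0.09 (78 genes) and 0.04 (50 genes), and no neighbour was lower than the gene itself. Neighbours of the other 4 genes had medians between -0.13 and 0.09.

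**Figure D5:**
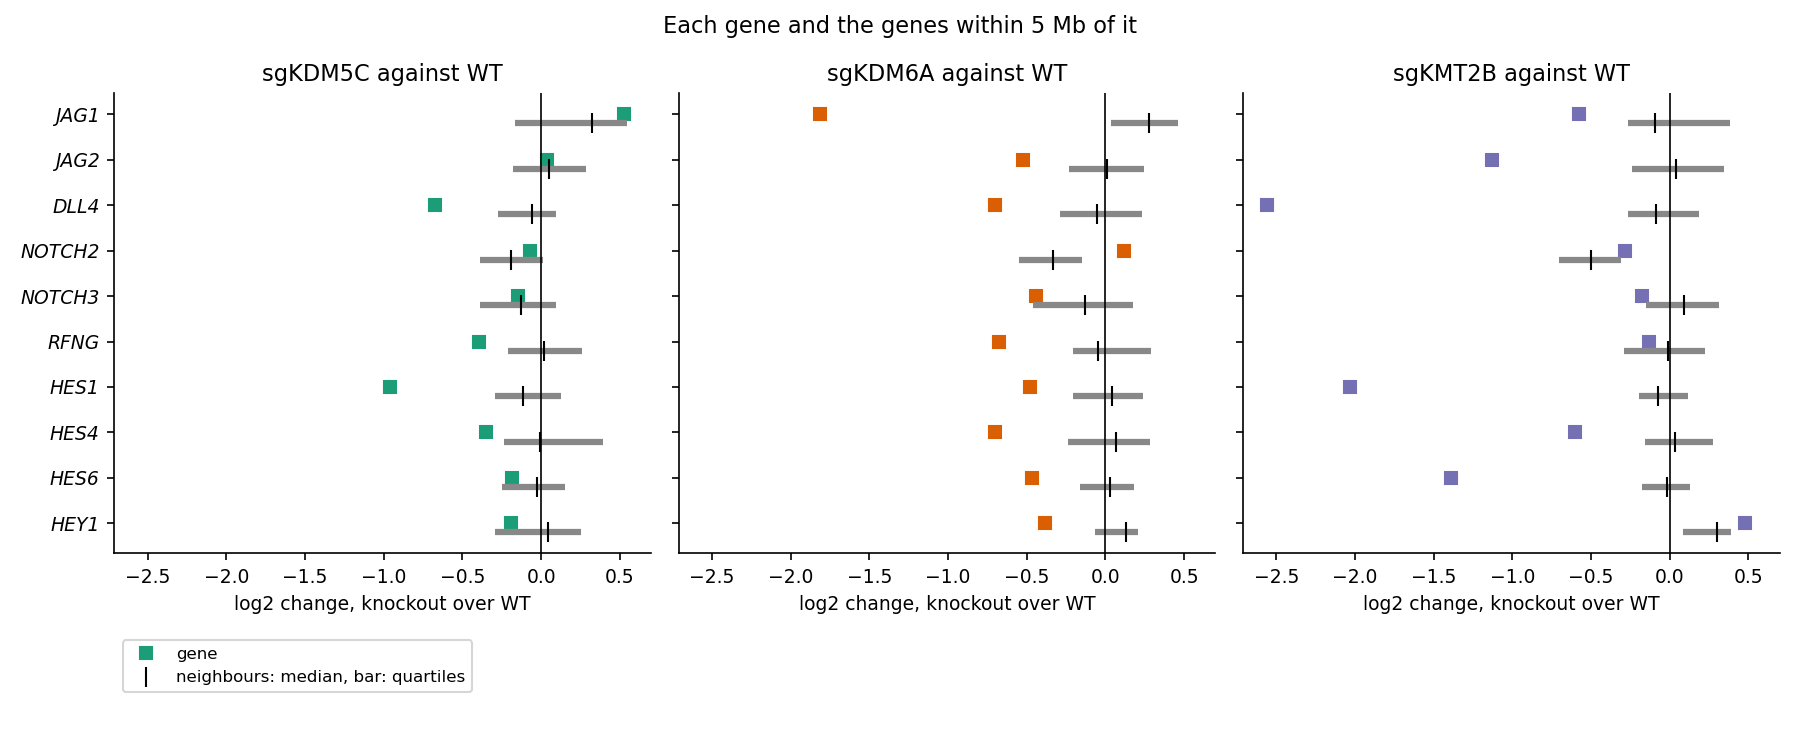
Log2 change against WT of each NOTCH gene (square) beside its neighbours within 5 Mb (tick at their median, bar over their quartiles), for sgKDM5C, sgKDM6A and sgKMT2B. HES1, DLL4, JAG2 and HES6 in sgKMT2B and JAG1 in sgKDM6A lie far below their neighbours, whereas HEY1 and NOTCH2 in sgKMT2B lie nearer to theirs.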

How the data were processed

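The authors deposited raw read counts per Ensembl gene for 8 libraries. Per the submitters' processing notes, STAR and HTSeq 0.11.2 were used, on GRCh38, also called hg38. Neither the strandedness of the counting nor its annotation release is given in the sources used here. Symbols were found for 60596 of 60617 identifiers, and coordinates and exon lengths came from GENCODE v29. Tests used edgeR 4.0.16 and R 4.3.3 (glmQLFit and glmQLFTest, two-sided, TMM factors, filterByExpr by group, all 8 libraries with 1 coefficient a group and 4 residual degrees of freedom), and p-values were adjusted over all 17527 tested genes of a comparison by the Benjamini-Hochberg method. The main test also ran on counts simulated with levels and spreads taken from the main fit, and the outcome is not given here. Alternatives were DESeq2 1.42.0, other scalings and filters, a replicate block, thinning to one depth, only the 4 libraries compared, and each library left out. The genes and lists were chosen with earlier results of these data known. The rule named every NOTCH gene followed, the targeted genes, up to 4 called genes of each role with the smallest adjusted p in each knockout, and the 2 nearest patterns of the 3 genes with the widest span. Intervals and chi-square checks cover counting error only, and replicates differed by more than that.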

Additional observations from a re-analysis of the deposited data

How the results depend on the processing

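With 2 libraries a group the tests lean on a spread shared by all groups, so a library left alone in its group is assumed to vary like the others. Over 970 alternative values for the 10 genes, 896 kept their direction and side of the threshold, 45 lost a call, 19 gained one and 10 changed sign, none of the last being called. At one depth the sgKDM5C calls of RFNG (adjusted p = 0.0536) and HES4 (0.0516) were lost, and DLL4, the gene with the fewest counts, kept its calls.

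Thinning to one depth called 2 of the 10 genes in sgKDM5C, not 4, and no filter called 5 between sgKDM5C and sgKDM6A, not 3. Leaving out 1 library gave 1 to 4 calls in sgKDM5C, 5 to 8 in sgKDM6A and 6 to 8 in sgKMT2B against WT, and 1 to 5 (sgKDM5C against sgKDM6A), 6 to 7 (sgKDM5C against sgKMT2B) and 5 to 9 (sgKDM6A against sgKMT2B) between knockouts. The lowest counts came without WT replicate 1 or sgKDM5C replicate 2 (1 in sgKDM5C), and without either sgKDM6A replicate (5 in sgKDM6A). Pathway calls ran from 11 to 24, 17 to 28 and 15 to 31 in sgKDM5C, sgKDM6A and sgKMT2B, and calls over all genes from 1841 to 3877, 2495 to 4711 and 2372 to 4787 against WT, and from 1878 to 4158, 2236 to 4488 and 2551 to 4966 between knockouts. The main counts over all genes were 3969, 4759 and 4931 against WT, and 3468, 3882 and 4356 between knockouts.

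Changes of sign, with the range over left-out libraries, were as follows. JAG2 in sgKDM5C was at -0.026 without WT replicate 2 and ran from -0.094 (without sgKDM5C replicate 2) to 0.15. NOTCH3 ran from -0.31 to 0.032 in sgKDM5C and from -0.33 to 0.0014 in sgKMT2B, with both upper ends without WT replicate 1. DLL4 between sgKDM5C and sgKDM6A was at -0.23 when thinned and ran from -0.12 to 0.19, at its low end without sgKDM5C replicate 2, and likewise below 0 without sgKDM6A replicate 1. NOTCH3 between sgKDM5C and sgKMT2B ran from -0.090 (without sgKDM5C replicate 2) to 0.13, and was at -0.020 without sgKMT2B replicate 1. HES4 between sgKDM6A and sgKMT2B ran from -0.27 to 0.091, above 0 without sgKMT2B replicate 2. The causes were not tested.

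Same-numbered libraries deviated together between knockouts (correlations of 0.485, 0.323 and 0.308) and not with WT (-0.102, -0.031 and 0.025). The study names no design, so the replicate number was not a block in the main fit. Between knockouts the main fit thus leaves out a deviation that same-numbered libraries share. With the replicate number as a block, 4, 8 and 8 of the 10 genes were called against WT and 4, 7 and 8 between knockouts, and 4645, 5521 and 5576 genes in all against WT. The block also called HES4 higher in sgKDM5C than in sgKDM6A (log2 change 0.35, adjusted p = 0.0108) and than in sgKMT2B (0.26, adjusted p = 0.0439). Crossing the WT numbers in the 4 libraries of sgKDM5C and WT, chosen after seeing the data, gave 4 of the 10 genes, 22 of the pathway list and 3413 of all genes.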
